A study of Mus musculus with 32 samples.

Results

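The libraries compared here came from cortical neurons that were exposed for 6 h to extracellular miR-124-5p, a synthetic single-stranded oligoribonucleotide with the sequence of this miRNA, stabilised by phosphorothioate bonds, and from untreated neurons harvested at the same time. They were chosen by their labels, 4 libraries labelled miR-124-5p and 4 labelled untreated, which make 8 of the 32 libraries of the series. The labels were used as given. No transcript in the counts marks which oligoribonucleotide a culture received, so that an exchange of 6 h labels between miR-124-5p and the other oligoribonucleotides, Mut.oligo included, could not be checked, and every value given here for miR-124-5p is a value of the libraries labelled so. All neurons were of WT genotype, prepared from forebrains of C57BL/6 mice at embryonic day 17 to 18, and kept in Neurobasal medium with B27. The exposed neurons received 10 µg/mL of the oligoribonucleotide, whereas the untreated neurons received none, so that the comparison did not separate the effect of this sequence from that of any added oligoribonucleotide. Primary cultures of this kind hold glia and progenitors beside neurons. The series also holds neurons exposed for 6 h to miR-92a-1-5p, another miRNA, and to Mut.oligo, a mutated let-7b sequence used as control, with 4 libraries each.

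The study describes the miRNA whose sequence was applied as abundant in the brain of mouse and human. Outside the cell, single-stranded RNA can be taken up into endosomes and sensed by Toll-like receptor 7 (TLR7), which recruits the adaptor MyD88 and kinases of the IRAK family and leads to activation of NF-kB and of interferon regulatory factors. The question of the comparison was which transcripts respond to such exposure in neurons before cell loss starts.

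The untreated libraries held 30147274 to 37732234 counts on genes, and the miR-124-5p libraries 27379790 to 40009485. A count of 3 in a library corresponded to between 0.0750 and 0.110 CPM, a floor that covers counting error only. CPM is the count scaled to a common library total, and levels were further scaled with TMM factors for library composition. The libraries were labelled as biological replicates and carried an experiment batch. The groups shared 2 of these batches, and the 8 libraries fell into 6. miR-124-5p replicate 1 shared its batch with untreated replicate 4, and miR-124-5p replicate 4 shared its batch with untreated replicate 3. miR-124-5p replicate 2 shared a batch only with a Mut.oligo library, and miR-124-5p replicate 3 was alone in its batch. Pearson's r of log2 CPM over genes was 0.9931 and 0.9937 in the pairs of 1 batch, between 0.9871 and 0.9918 in the 14 other pairs of a miR-124-5p and an untreated library, and between 0.9872 and 0.9922 in the 12 pairs within a group. The partners of a batch were thus closer to each other than any replicates of 1 treatment were. Genes of excitatory neurons were present throughout, with a summed level of 5400 to 6180 CPM over 12 markers in untreated and 5870 to 6400 CPM in miR-124-5p libraries.

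**Figure D1:**
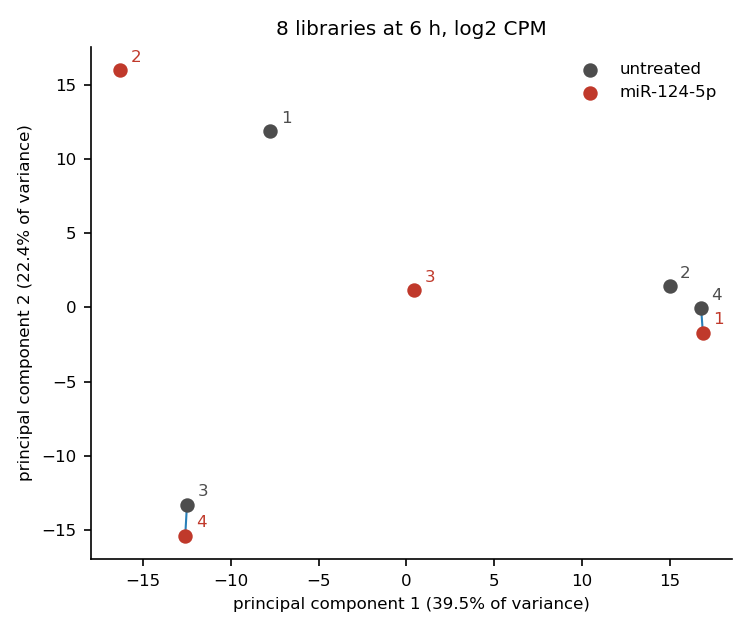
Principal components 1 and 2 of log2 CPM in the 8 libraries, with the share of variance on each axis, points coloured by treatment and numbered by replicate, and lines between the libraries of a shared batch. The batch partners lie next to each other, untreated replicate 4 at 16.8 and miR-124-5p replicate 1 at 16.9 on component 1, and untreated replicate 3 at -12.5 and miR-124-5p replicate 4 at -12.6.

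No gene passed the threshold after 6 h of miR-124-5p exposure. Of 18755 genes tested with edgeR's quasi-likelihood test, 0 were higher and 0 were lower when a log2 fold change beyond 0.5 and an adjusted p below 0.05 (Benjamini-Hochberg) were required (0.0% in either direction), and the smallest adjusted p was 0.9999. Before adjustment, 592 genes (3.16%) were higher and 260 (1.39%) lower at p under 0.05. Once the experiment batch entered as covariate, the counts of genes past the threshold were again 0 and 0 (0.0%), with a smallest adjusted p of 0.6971, and 659 genes (3.51%) were higher and 427 (2.28%) lower before adjustment. DESeq2 without a covariate called 0 genes in either direction, with 510 higher (2.72%) and 224 lower (1.19%) before adjustment. DESeq2 with the batch called 1 gene higher, Kcnq1ot1 (0.00533%), and 0 lower (0.0%), with 278 higher (1.48%) and 157 lower (0.837%) before adjustment. The median log2 fold change over all genes was -0.00334, with 51.3% of genes below 0, and with the batch it was -3.3e-05, with 50% below 0.

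The precision of the comparison varied with the level of the gene. For the 13458 genes whose mean log2 CPM was above 0, the median standard error of the log2 fold change was 0.0753, and the 95% interval lay within 0.5 on either side of 0 for 11179 genes (83.1%) and within 1 for 13215 (98.2%). With the batch in the model the median standard error was 0.0631, and 11955 of these genes (88.8%) had an interval within 0.5.

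**Figure D2:**
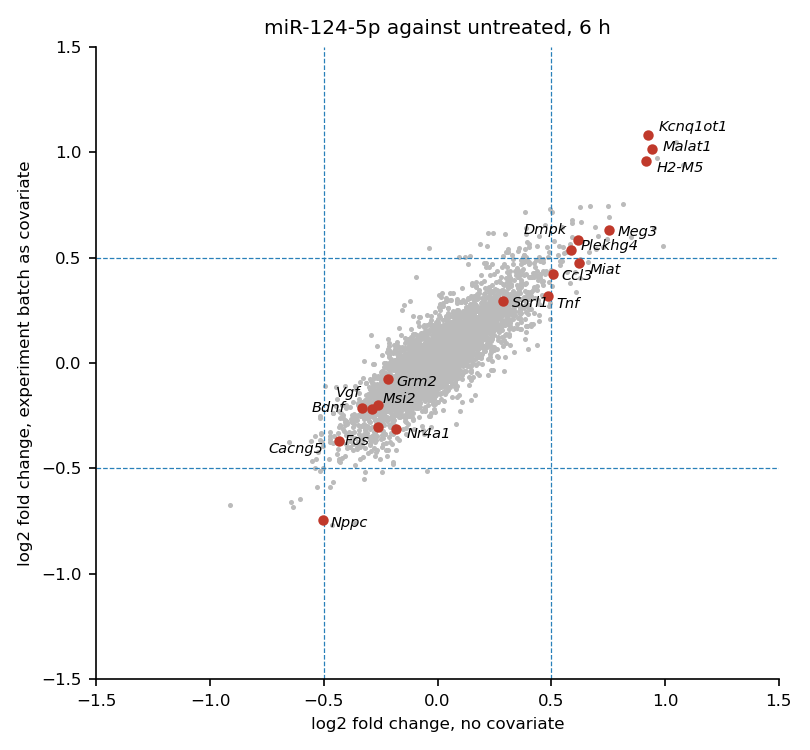
Log2 fold change of miR-124-5p against untreated without a covariate (x axis) and with the experiment batch as covariate (y axis), each grey point 1 gene of at least 1 CPM, red points the genes labelled, dashed lines at the fold change limits of 0.5 and -0.5. Of the labelled genes, Kcnq1ot1, Malat1 and H2-M5 lie farthest to the upper right, with 0.93, 0.94 and 0.92 without and 1.08, 1.02 and 0.96 with the batch.

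Immediate early genes are transcribed within minutes of neuronal activity and encode transcription factors such as Fos and Npas4. Fos was measured at 19.2, 11.6, 5.02 and 9.06 CPM in the 4 untreated libraries and at 7.21, 17.9, 8.95 and 3.66 CPM in the 4 miR-124-5p libraries. The groups overlapped over nearly their whole range, with untreated replicate 1 and miR-124-5p replicate 2 the highest of their groups. The log2 fold change of Fos was -0.26 ± 0.45 (SE), with a 95% interval from -1.21 to 0.69. Within the shared batches, Fos was lower in the miR-124-5p library each time, by -0.33 between miR-124-5p replicate 1 and untreated replicate 4 and by -0.45 between miR-124-5p replicate 4 and untreated replicate 3 on the log2 scale. With the batch in the model its fold change was -0.30 ± 0.15, with an unadjusted p of 0.0617. Nr4a1, an orphan nuclear receptor, was at 29.9, 20.9, 13.2 and 16 CPM in untreated and at 14.2, 28.7, 17.9 and 9.87 CPM in miR-124-5p libraries. Its log2 fold change was -0.18 ± 0.33 without the batch and -0.32 ± 0.075 with it, where the unadjusted edgeR p was 0.000733 and the adjusted p 0.798. Leaving out 1 library turned these fold changes without the batch above 0, to 0.015 for Fos and 0.022 for Nr4a1 without miR-124-5p replicate 4, and to 0.125 and 0.076 without untreated replicate 1.

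Of the 22 immediate early genes, 18 had a log2 fold change below 0 and 0 an unadjusted p under 0.05, with a median of -0.125, which lay between -0.201 and -0.005 when 1 library was left out (nearest to 0 without untreated replicate 1 and, at -0.018, without miR-124-5p replicate 4). With the batch, 18 were again below 0, 3 of them with an unadjusted p under 0.05 (Fosb, Nr4a1 and Nr4a3), and the median was -0.117. Of all genes, 2.28% were lower at that level with the batch. In both shared batches 12 of the 22 were lower and 3 higher in the miR-124-5p library, compared with 27.1% of all genes lower and 26.1% higher in both. Npas4, a transcription factor induced by calcium influx, was at 16.2, 11.1, 4.78 and 6.09 CPM in untreated and at 5.3, 14.5, 9.08 and 3.48 CPM in miR-124-5p libraries. Klf4 and Arc did not share this direction, with log2 fold changes of 0.27 and 0.04. The genes with the smallest unadjusted p in the list were Ier5, Klf4 and Egr4 (0.131, 0.144 and 0.171).

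Activity-regulated genes of a later wave encode neuropeptides, neurotrophins and proteins of secretory granules. Bdnf, the neurotrophin brain-derived neurotrophic factor, was at 20.8, 23.0, 10.4 and 11.9 CPM in untreated and at 8.98, 23.8, 13.2 and 6.68 CPM in miR-124-5p libraries. Its libraries overlapped, and its log2 fold change was -0.33 ± 0.37, but it was lower in both shared batches, by -0.40 and -0.63. Vgf, a precursor of secreted peptides, was at 101, 106, 62.3 and 80.8 CPM in untreated and at 72.1, 107, 69.7 and 43.4 CPM after exposure, a log2 fold change of -0.26 ± 0.24. Adcyap1, which encodes the neuropeptide PACAP, was at 21.2, 14.9, 15.1 and 17.2 CPM in untreated and at 13.0, 25.9, 10.2 and 10.1 CPM after exposure. Replicate 2 was above every untreated library and the other 3 miR-124-5p libraries were below every one, and the log2 fold change was -0.22 ± 0.33 without and -0.22 ± 0.17 with the batch. Rgs4, a regulator of G protein signaling, had the same shape, with 205 CPM in miR-124-5p replicate 2 against 118, 131 and 123 CPM in the other miR-124-5p libraries and 138 to 194 CPM in untreated neurons.

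**Figure D3:**
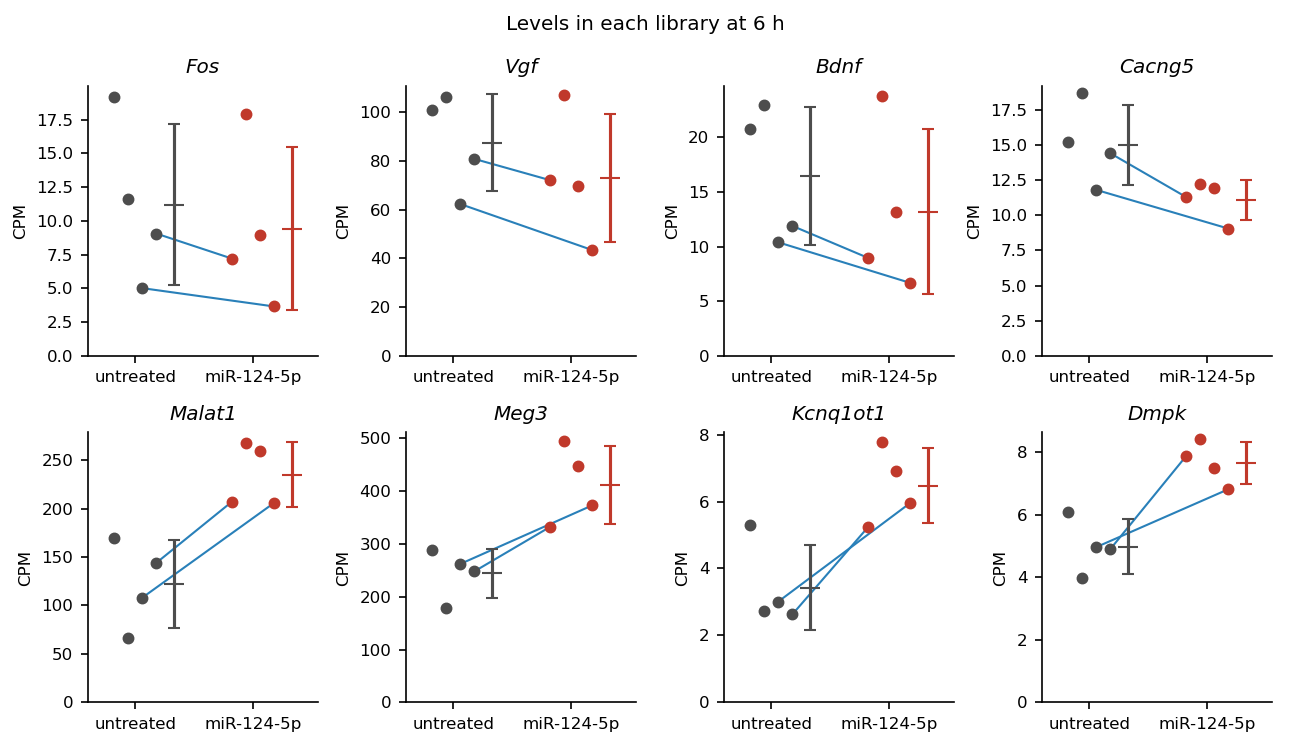
CPM (y axis, from 0) of 8 genes in the 4 untreated and 4 miR-124-5p libraries, points offset by replicate number, horizontal bars the mean and vertical bars the SD (n = 4), blue lines the libraries of a shared batch. Fos, Vgf, Bdnf and Cacng5 were lower and Malat1, Meg3, Kcnq1ot1 and Dmpk higher in the miR-124-5p library of both batches, whereas the groups overlapped for Fos, Vgf, Bdnf, Cacng5 and Kcnq1ot1.

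Among the 29 activity-regulated secreted and synaptic genes, 20 had a log2 fold change below 0 (median -0.103) and 0 reached an unadjusted p of 0.05. With the batch, 21 were below 0 (median -0.0669), and 3 of these (Sst, Rgs2 and Pcsk1) and 1 above 0 (Nptx1) had an unadjusted p under 0.05. Of all genes, 2.28% were lower and 3.51% higher at that level with the batch. In both shared batches 15 were lower and 7 higher. Their summed level was 1730, 1680, 1600 and 1590 CPM in untreated and 1510, 1760, 1480 and 1470 CPM in miR-124-5p libraries, so that 3 of the miR-124-5p libraries were below every untreated library and replicate 2 was above every one. The smallest unadjusted p values belonged to Rheb, a GTPase of growth control (0.101), Scg2, a granin of secretory granules (0.105), and Pcsk1, a protease that processes prohormones (0.12). Pcsk1 was at 8.76, 8.08, 5.33 and 6.35 CPM in untreated and at 3.79, 7.67, 5.96 and 4.38 CPM after exposure.

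Many activity-regulated genes carry the cAMP response element, the palindrome TGACGTCA, close to their start site, where the transcription factor CREB binds. In RefSeq promoters of GRCm38.p6, taken from 250 bases before to 50 after the start, this 8-base motif was searched and reads the same on both strands. It was present for 549 of 27025 genes (2.03%), for 2 of the 18 matched immediate early genes (11.1%, Btg2 and Maff), and for 5 of the 20 matched activity-regulated secreted and synaptic genes (25.0%). The 5 are shown because they let the transcript levels be read beside a shared promoter feature, as 30 bases on the strand of the gene with the motif in capitals. They lie at chr1:79440076-79440105 (Scg2, minus strand), chr13:75089768-75089797 (Pcsk1, plus strand), chr16:23890874-23890903 (Sst, minus strand), chr13:99900777-99900806 (Cartpt, minus strand) and chr13:110394971-110395000 (Plk2, plus strand).
Scg2: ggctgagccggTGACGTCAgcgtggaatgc
Pcsk1: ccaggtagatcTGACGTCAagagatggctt
Sst: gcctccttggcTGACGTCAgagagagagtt
Cartpt: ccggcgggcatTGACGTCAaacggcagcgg
Plk2: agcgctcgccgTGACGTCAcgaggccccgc
The log2 fold changes of these 5 genes were -0.29, -0.39, -0.18, -0.14 and 0.07 in this order, so that the genes with the motif did not share 1 direction. Scg2 was at 139, 182, 128 and 149 CPM in untreated and at 116, 157, 117 and 102 CPM after exposure. Plk2, a kinase that weakens synapses after sustained activity, was at 228, 204, 217 and 212 CPM and at 222, 240, 228 and 214 CPM, with a 95% interval of its log2 fold change from -0.05 to 0.18.

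The ERK feedback genes, which encode phosphatases and inhibitors induced by the kinase ERK and dampening it, were mostly below 0 as well (17 of 19, median -0.0797, and 16 of 19 with the batch, median -0.085). Of these, Etv1, a transcription factor downstream of ERK, had an unadjusted p of 0.0434 without the batch, and Dusp4, a phosphatase, 0.0145 with it. At an unadjusted p under 0.05, 1.39% of all genes were lower without the batch and 2.28% with it. Dusp7 had a log2 fold change of 0.12 and Spred1 of -0.06. The summed level of the list was 583 to 683 CPM in untreated and 552 to 669 CPM in miR-124-5p libraries.

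Cacng5, an auxiliary subunit that modulates AMPA receptors, was the gene of the glutamate receptors with the smallest p. It was at 15.2, 18.7, 11.8 and 14.4 CPM in untreated and at 11.3, 12.2, 11.9 and 9.05 CPM in miR-124-5p libraries. The groups overlapped, since untreated replicate 3 was below miR-124-5p replicates 2 and 3. The log2 fold change was -0.43 ± 0.16 with an unadjusted edgeR p of 0.0162, and -0.37 ± 0.09 with the batch (p 0.000556, adjusted p 0.798), with within-batch differences of -0.34 and -0.38. The other 14 AMPA receptor and auxiliary genes had fold changes between -0.04 and 0.15 and 0 of them an unadjusted p under 0.05, and the median of the 15 was 0.0335. Cacng2, which encodes stargazin, and Shisa6 were next in the list, with 0.09 and 0.15.

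Grm2, a presynaptic metabotropic glutamate receptor that reduces release, was at 44.2, 57.7, 39.9 and 44.7 CPM in untreated and at 38.0, 51.0, 37.3 and 34.5 CPM after exposure. Of the miR-124-5p libraries, 3 were below every untreated library, and replicate 2 was above 3 of them. The log2 fold change was -0.22 ± 0.16 without and -0.08 ± 0.10 with the batch, and the differences within the shared batches were -0.23 and -0.21. Hdac9, a histone deacetylase, was at 145, 154, 97.8 and 139 CPM and at 110, 158, 118 and 72.1 CPM, a log2 fold change of -0.23 ± 0.21. The 7 metabotropic glutamate receptors tested had a median of -0.00137, with 4 below 0 (Grm7 at -0.10).

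The receptor and adaptors of the TLR7 pathway were partly at low levels, and none passed the threshold. Tlr7 was at 0.71, 0.507, 0.731 and 1.05 CPM in untreated and at 0.793, 0.691, 0.352 and 0.722 CPM in miR-124-5p libraries, which corresponds to counts of 14 to 40 per library. The log2 fold change was -0.26, with an interval from -0.85 to 0.33. Myd88, the adaptor of TLR7, had -0.003 ± 0.14. Irak4, the kinase recruited next, was at 0.518 to 0.919 CPM in untreated and 0.364 to 0.685 CPM after exposure, with -0.34 ± 0.35. Ticam1 and Sarm1, further adaptors, had -0.17 ± 0.18 and 0.05 ± 0.07, Rela, a subunit of NF-kB, had -0.05 ± 0.06, and Irf7, a factor that drives interferon genes, had 0.02 ± 0.32.

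Of the 25 TLR7 pathway genes, 14 were below 0 (median -0.0176) and 0 had an unadjusted p under 0.05. With the batch, 18 were below 0 (median -0.0517), with Cd14, a co-receptor, and Irak2 higher and Unc93b1, which carries TLR7 to the endosome, lower at an unadjusted p under 0.05. In that fit 3.51% of all genes were higher and 2.28% lower at the same level. Ikbkb and Ikbkg, parts of the kinase that releases NF-kB, had 0.12 and -0.10. The summed level of the list was 599 to 613 CPM in untreated and 600 to 617 CPM in miR-124-5p libraries. Of the 17 NF-kB subunits and feedback genes, 9 were above 0 (median 0.00178, from -0.15 without miR-124-5p replicate 1 to 0.115 without untreated replicate 4). Among them, Cyld, a deubiquitinase that limits NF-kB, was at 38.8, 40.9, 39.8 and 40.5 CPM in untreated and at 43.9, 38.9, 44.5 and 45.3 CPM after exposure, a log2 fold change of 0.11 ± 0.05 with an unadjusted p of 0.0434. Rel and Nfkbib followed with -0.20 and -0.06.

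Of the cytokine transcripts 0 passed the threshold, and the sign of their median depended on 1 library. Ccl3, a chemokine, was at 4.6, 4.12, 3.71 and 7.09 CPM in untreated and at 10.2, 4.0, 6.89 and 6.75 CPM in miR-124-5p libraries. The highest value of each group came from the same batch, untreated replicate 4 and miR-124-5p replicate 1. The log2 fold change was 0.51 ± 0.28, and within the shared batches 0.52 and 0.85. Tnf was at 2.37, 1.43, 1.98 and 3.5 CPM and at 5.05, 2.04, 3.65 and 2.37 CPM, with 0.49 ± 0.32 and with 0.52 and 0.26 within the batches. Without miR-124-5p replicate 1 the fold change of Tnf was 0.212 and that of Ccl3 0.272. Cxcl2 was at 0.412 to 0.685 CPM in untreated and 0.473 to 1.19 CPM after exposure, with 0.62 ± 0.35, and Il1a, at under 1 CPM in every library, had 0.41 ± 0.41 and, without miR-124-5p replicate 1, 0.061. Il6 was near the floor, with 0 to 0.211 CPM in untreated and 0 to 0.0754 CPM in miR-124-5p libraries, and its direction is not readable at this depth.

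Of the 24 cytokine and chemokine genes tested, 16 were above 0 without the batch (median 0.148) and 15 with it (median 0.257), and 13 were higher and 4 lower in both shared batches, against 26.1% and 27.1% of all genes. The median turned to -0.079 without miR-124-5p replicate 1, and it was 0.02 without untreated replicate 2 and 0.352 without untreated replicate 4. With the batch, Il1rn, which encodes the receptor antagonist of interleukin 1, was higher (1.19, unadjusted p 0.0123) and Cxcl12 lower (-0.17, p 0.0422). In that fit 3.51% of all genes were higher and 2.28% lower at an unadjusted p under 0.05. The smallest unadjusted p without the batch belonged to Il1rn, Ccl3 and Lif (0.0879, 0.0906 and 0.0929). Summed over the list, the levels were 97.0, 119, 103 and 140 CPM in untreated and 149, 89.9, 105 and 108 CPM in miR-124-5p libraries, with the highest of each group again in 1 shared batch. Of 26 interferon-stimulated genes, 17 were above 0 (median 0.076), and 19 with the batch (median 0.164), with 0 and 1 (Zbp1) at an unadjusted p under 0.05. Their median turned to -0.278 without miR-124-5p replicate 1 and to -0.094 without untreated replicate 3, and it was 0.256 without untreated replicate 4. Ifnar2, Mx1 and Stat2 led the list with -0.14, 1.37 and 0.09, and Mx1 was at no more than 0.252 CPM in any library. Microglia are among the cells that can make Ccl3 and Tnf. The summed level of 14 microglia markers was 30.6, 25.9, 33.8 and 42.2 CPM in untreated and 42.9, 27.7, 25.5 and 30.2 CPM in miR-124-5p libraries. The library pair with the most Ccl3 was also the pair with the most microglia transcripts. Within that pair the marker sums were alike (42.2 and 42.9 CPM), whereas Ccl3 was higher in the miR-124-5p library. The lowest marker sum, 25.5 CPM in miR-124-5p replicate 3, did not go with the lowest Ccl3 of that group. The study compared neuron and microglia cultures by RT-qPCR, lipopolysaccharide included. It concludes that its neuronal expression changes cannot be ascribed to microglia. The part of these cells in the cytokine values was not tested here.

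Long non-coding RNAs that stay in the nucleus had the highest median of the 34 lists. Malat1 (ENSMUSG00000092341, chr19:5795690-5802672, minus strand), a transcript of nuclear speckles, was at 170, 66.3, 108 and 144 CPM in untreated and at 207, 268, 259 and 206 CPM in miR-124-5p libraries, so that the groups did not overlap. Its log2 fold change was 0.94 ± 0.34 without the batch, with an unadjusted edgeR p of 0.0134, and 1.02 ± 0.24 with it (p 0.000711, adjusted p 0.798). Within the shared batches it was higher by 0.52 and 0.93. Miat (chr5:112213228-112229395, minus strand), another nuclear transcript, was at 85.6, 55.3, 71.0 and 84.3 CPM and at 85.9 to 142 CPM, a log2 fold change of 0.62 ± 0.22. Its groups did not overlap, though the lowest miR-124-5p library exceeded the highest untreated one only by 85.9 to 85.6 CPM. Libraries of the groups did not overlap for 351 of all genes (1.87%) with higher and 258 (1.38%) with lower values after exposure.

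Of the 6 nuclear long non-coding RNAs, 5 were above 0 without the batch (median 0.491) and 5 with it (median 0.51). At an unadjusted edgeR p under 0.05, 3 were higher and 0 lower without the batch. With the batch 4 were higher and 1 lower, the lower one at -0.269. The shares of all genes were 3.16% higher and 1.39% lower without the batch, and 3.51% and 2.28% with it. Snhg11, the third with an unadjusted p under 0.05, was at 14.3, 9.41, 22 and 13.9 CPM in untreated and at 18.7, 29.6, 21 and 27.8 CPM after exposure. Neat1, the scaffold of paraspeckles, was at 0.639 to 1.74 CPM in untreated and 0.902 to 2.16 CPM after exposure, with 0.36 ± 0.44. Gm26917 differed from the rest with -0.36 ± 0.25. The summed level of the list was 354, 235, 299 and 343 CPM in untreated and 429, 518, 495 and 422 CPM in miR-124-5p libraries, with no overlap.

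The imprinted long non-coding RNAs were uneven. Meg3 (ENSMUSG00000021268, chr12:109541001-109571726, plus strand), the maternally expressed transcript of the Dlk1-Dio3 region, was at 289, 179, 262 and 248 CPM in untreated and at 332, 495, 447 and 373 CPM in miR-124-5p libraries, without overlap. The log2 fold change was 0.75 ± 0.21 (unadjusted p 0.00222) and 0.63 ± 0.16 with the batch (p 0.000993), and 0.42 and 0.51 within the shared batches. Rian, the next transcript of the same region, was at 500 to 561 CPM and at 502 to 576 CPM, with 0.01 ± 0.06, and Mirg had 0.30 ± 0.16. Kcnq1ot1 (ENSMUSG00000101609, chr7:143203458-143296549, minus strand), which is transcribed antisense within Kcnq1, was at 5.31, 2.73, 3.01 and 2.63 CPM in untreated and at 5.23, 7.78, 6.91 and 5.96 CPM after exposure. Its groups overlapped through untreated replicate 1 alone. Its log2 fold change was 0.93 ± 0.32, and 1.08 ± 0.22 with the batch, with 0.97 in each of the shared batches, and DESeq2 with the batch gave it an adjusted p of 0.0307. The reads were counted by strand, so that reads of Kcnq1 were kept apart from it. Of the 9 imprinted transcripts, 6 were above 0 (median 0.106, from 0.008 without untreated replicate 3 to 0.246 without untreated replicate 1, and -0.003 in the shared batches only). The host transcript Mir124a-1hg of a miR-124 hairpin was at 28.7 to 30.5 CPM in untreated and at 33.4, 48.3, 45.1 and 30.4 CPM in miR-124-5p libraries (0.41 ± 0.15), and Mir124-2hg at 37.0 to 47.3 CPM and 36.6 to 49.5 CPM (0.02 ± 0.12). These hosts were chosen after their values were seen.

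Gene types other than protein-coding had mostly higher medians. The median log2 fold change was 0.218 over 535 TEC loci, which are transcribed regions of uncertain status, 0.274 over 60 sense intronic, 0.128 over 738 antisense and 0.0581 over 733 lincRNA genes, against -0.00856 over 15323 protein-coding genes. Of the TEC loci, 64 (12%) were higher and 8 (1.5%) lower at an unadjusted p under 0.05, against 378 (2.47%) and 211 (1.38%) of the protein-coding genes. With the batch the medians were 0.191, 0.256, 0.154, 0.0976 and -0.0048 in the same order. Within the shared batches they were 0.0647 and 0.115 for TEC loci, but -0.0491 and 0.0567 for sense intronic genes. The median level of the TEC loci was 0.218 CPM. Protein-coding genes under 1 CPM had a median of 0.0352 and other types under 1 CPM 0.14, whereas at 1 CPM or more the medians were -0.0101 and 0.045. Long non-coding and TEC loci took 0.844%, 0.792%, 0.753% and 0.786% of the counts in untreated and 0.812%, 0.893%, 0.852% and 0.797% in miR-124-5p libraries, so that the shares overlapped. Processed pseudogenes had a median of 0.102. Their reads can come from the parent gene and are uncertain.

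**Figure D4:**
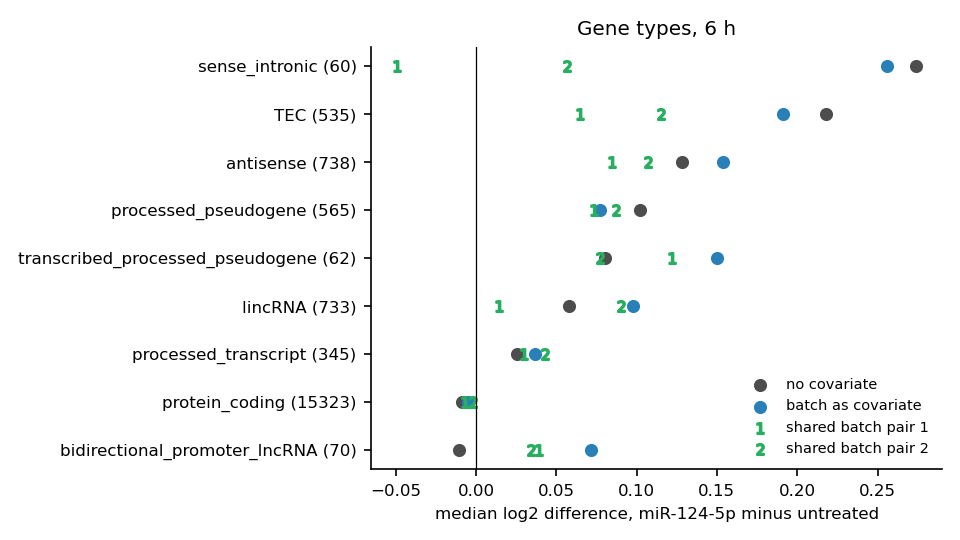
Median log2 difference between miR-124-5p and untreated libraries (x axis) by gene type of the annotation, with the number of genes tested in brackets, without a covariate (dark points), with the batch (blue points) and within the shared batches (green numerals, 1 for miR-124-5p replicate 1 and 2 for miR-124-5p replicate 4). TEC, antisense and lincRNA genes lie above 0 in all 4, and protein-coding genes lie within 0.01 of 0. Sense intronic genes lie at -0.0491 in the batch of miR-124-5p replicate 1.

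Genes whose mean log2 CPM was above 0 were split by exon length into 5 sets of nearly equal size. The median log2 fold change was -0.0247 in the set of the shortest and 0.0186 in that of the longest transcripts (exon length 7895 bases or more), where 147 genes were higher and 19 lower at an unadjusted p under 0.05, against 36 and 64 in the shortest set. With the batch the counts were 200 and 49 in the longest and 64 and 100 in the shortest set. Of all genes tested, 3.16% were higher and 1.39% lower at that level without the batch, and 3.51% and 2.28% with it. The median deviation from the mean of the 8 libraries in the longest set was 0.0228, -0.0485, 0.000977 and -0.0227 in untreated and -0.0403, 0.0378, 0.0278 and 0.0261 in miR-124-5p libraries. miR-124-5p replicate 1 was thus below 0, unlike the other 3 of its group, and the groups overlapped. A length shift between libraries moves with the values of short transcripts and of long ones such as Dync1h1 and Grin2b. Its part in the values of genes and lists was not tested.

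The genes with the smallest p whose libraries did not overlap were of low or middle level. Among the higher ones, Plekhg4, a guanine nucleotide exchange factor, was at 3.08, 2.6, 3.56 and 2.85 CPM in untreated and at 3.71, 4.55, 4.88 and 4.95 CPM after exposure, with a log2 fold change of 0.59 ± 0.13 and an unadjusted edgeR p of 0.000357, the smallest of these genes. H2-M5, a gene of the class I major histocompatibility region, was at 1.33 to 1.56 CPM and at 2.13 to 3.07 CPM, with 0.92 ± 0.22. Sfxn2, a mitochondrial carrier protein, was at 4.54 to 5.45 CPM and at 5.85 to 7.2 CPM, with 0.43 ± 0.11. Dmpk, the kinase whose transcript carries the repeat of myotonic dystrophy, was at 6.09, 3.96, 4.96 and 4.9 CPM and at 7.86, 8.4, 7.49 and 6.81 CPM, with 0.62 ± 0.15 and, with the batch, 0.58 ± 0.12 (adjusted p 0.6971). The pseudogene Gstp-ps completed the group with 0.82 ± 0.21.

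Among the lower ones, Atp5k, a small subunit of the mitochondrial ATP synthase, was at 61.7 to 67.5 CPM in untreated and at 54.8 to 59.3 CPM in miR-124-5p libraries, with -0.18 ± 0.04 (unadjusted p 0.000499). Maoa, which degrades monoamines, was at 39.7 to 44.6 CPM and at 33 to 37.7 CPM, with -0.23 ± 0.05. Nudcd2, Chodl, a membrane lectin, and Hprt, an enzyme of purine salvage, had -0.25 ± 0.07, -0.43 ± 0.14 and -0.14 ± 0.04. The groups did not overlap for these 5 genes, and all had an adjusted p of 0.9999.

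With the batch as a covariate, the genes with the smallest p that moved alike in both shared batches were partly the same. Sorl1, a sorting receptor for the amyloid precursor protein, was at 46.5 to 54.1 CPM in untreated and at 54.5 to 69.0 CPM in miR-124-5p libraries, with 0.29 ± 0.06 (unadjusted p 9.12e-05). Kcnq1ot1, Dmpk, Sfxn2 and Gm32444, a TEC locus (0.97 ± 0.22), were the other higher genes. Msi2, an RNA-binding protein of neural progenitors, was at 104, 142, 105 and 113 CPM and at 94.6, 98.4, 97.6 and 90.1 CPM, with -0.22 ± 0.04, the smallest p of these genes (5.11e-05, adjusted p 0.6971). Cacng5, Nr4a1, Hat1, a histone acetyltransferase (-0.22 ± 0.05), and Gad1, the enzyme that makes GABA, were the other lower genes. Gad1 was at 239, 260, 230 and 245 CPM in untreated and at 225, 225, 212 and 212 CPM after exposure, without overlap, and its log2 fold change was -0.13 ± 0.03.

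When only the 4 libraries of the shared batches were fitted, with the batch in the model and 1 residual degree of freedom, 12 of 16680 genes (0.0719%) were called higher and 4 (0.024%) lower, 198 (1.19%) had an adjusted p under 0.05 at any fold, and 798 (4.78%) were higher and 753 (4.51%) lower before adjustment. Such a fit rests largely on the spread shared over genes, and its p-values compare these 4 libraries. Malat1 (0.72), Kcnq1ot1 (0.99), Dmpk (0.57), Ccl3 (0.67) and Acod1, an enzyme of activated myeloid cells (0.60), were among the higher genes. The lower genes were Bdnf (-0.51), Acan, a proteoglycan of perineuronal nets (-0.66), Nppc, a natriuretic peptide (-0.84), and Crh, the peptide that releases corticotropin (-1.23). Acan was at 6.97, 7.73, 2.65 and 9.09 CPM in untreated and at 5.88, 5.96, 5.13 and 1.57 CPM after exposure, and Crh at 1.04 to 1.93 CPM and at 0.361 to 1.42 CPM, so that neither was apart over all 8 libraries. The pseudogenes Gm7389, Gm14303 and Rps16-ps2 were also called, and Gm7389 was at 2.71 CPM in miR-124-5p replicate 4 and at no more than 0.487 CPM in the other 7 libraries.

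Genes of neuronal structure and excitability had medians close to 0. Of 47 voltage-gated channel genes, 33 were above 0 (median 0.0379), 5 of them with an unadjusted p under 0.05 and 0 below 0 at that level. Of all genes, 3.16% were higher and 1.39% lower at that level. Within the shared batches the medians of the 47 were -0.0018 and 0.0303, with 18 genes higher and 15 lower in both. Cacna1h, a T-type calcium channel, was at 135, 110, 134 and 126 CPM in untreated and at 140, 153, 149 and 146 CPM after exposure, with 0.22 ± 0.06 and 0.18 ± 0.04 with the batch. Cacna1e and Cacna1d, further calcium channels, had 0.31 ± 0.11 and 0.22 ± 0.08. With the batch, 28 of the 47 were above 0 and the median was 0.0142. Of 25 axon and dendrite structure genes, 21 were above 0 (median 0.0241), but 11 with the batch (median -0.0032). Dync1h1, the heavy chain of cytoplasmic dynein, was at 929, 619, 767 and 723 CPM and at 877, 1070, 1080 and 1020 CPM, with 0.42 ± 0.14, and Sptan1, a spectrin, and Ank2, an ankyrin, had 0.20 ± 0.07 and 0.23 ± 0.09.

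Of 36 axon guidance genes, 28 were above 0 (median 0.0705, 0.0399 with the batch), led by Robo3, which was at no more than 0.873 CPM in any library, Slit1, a repulsive cue (0.18 ± 0.07), and Plxna1 (0.14). The 14 NMDA and kainate receptor genes had a median of 0.0315, with Grin2b, an NMDA receptor subunit, at 730, 471, 624 and 603 CPM and 640, 724, 822 and 753 CPM (0.28 ± 0.14), Grik1 at -0.09 and Grin2a at 0.18. Of 15 GABA receptor genes, 11 were below 0 (median -0.0707), with Gabra5 at 126, 140, 110 and 135 CPM and 114, 122, 108 and 99.9 CPM (-0.20 ± 0.08, unadjusted p 0.0235), Gabrg1 at -0.20 and Gabre at 0.38. The 30 synaptic vesicle and release genes had a median of -0.00657. In this list Syt2, a calcium sensor of release, and the active zone proteins Bsn and Pclo had the smallest p, with 0.50 ± 0.17, 0.21 ± 0.09 and 0.30 ± 0.15. Of 17 genes of microRNA processing and Argonaute proteins, 15 were above 0 (median 0.0818, 0.0698 with the batch), with Zswim8, which marks Argonaute for decay, at 0.11 ± 0.04, Ago3 at 0.25 ± 0.11 and Tnrc6b at 0.18 ± 0.10. Within the shared batches the medians of these 17 were -0.0183 and 0.0445, with 12 and 2 of them lower. In both batches 4 were higher and 1 lower, against 26.1% and 27.1% of all genes.

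**Figure D5:**
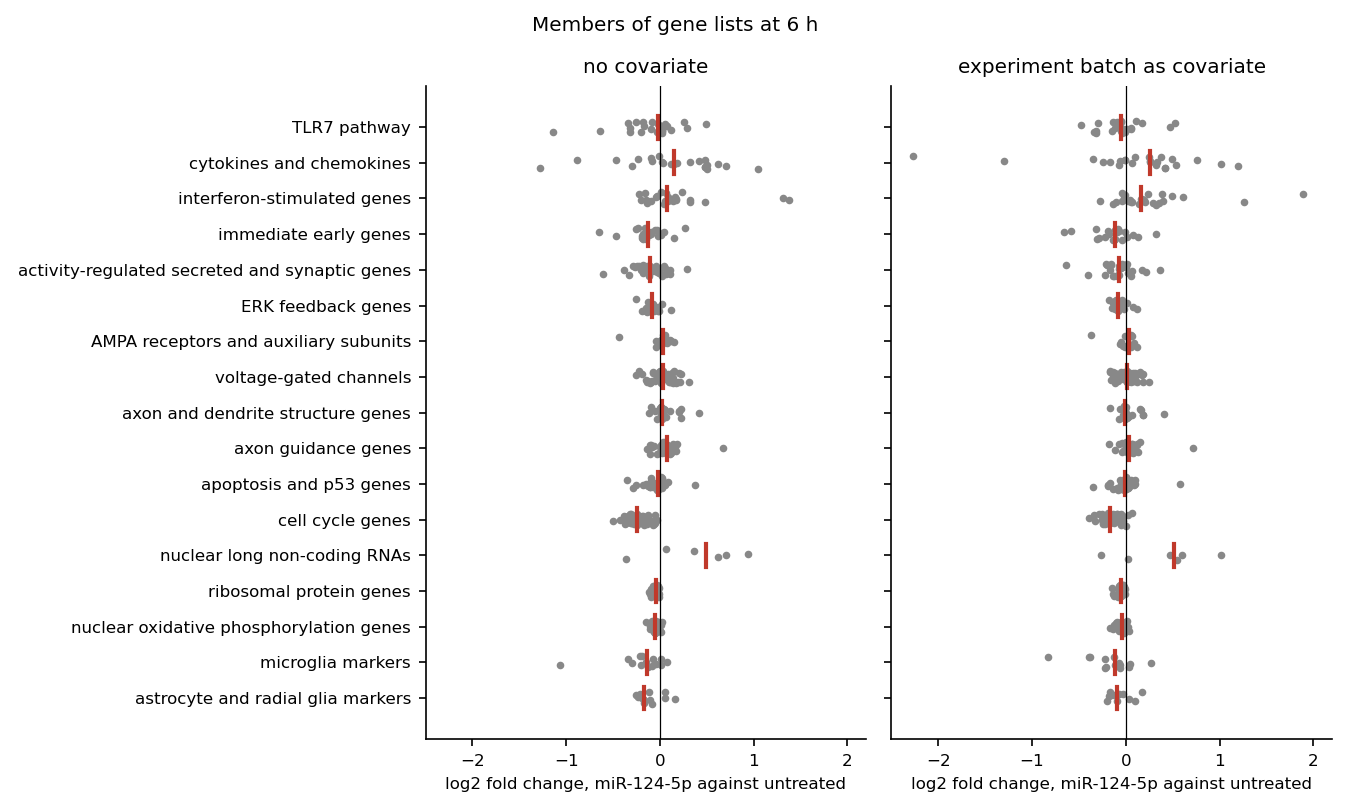
Log2 fold change of miR-124-5p against untreated (x axis) for the members of 17 gene lists (rows), without a covariate on the left and with the experiment batch as covariate on the right, each grey point 1 gene and each red bar the median of the list. The bars of nuclear long non-coding RNAs stand at 0.491 and 0.51 and those of cell cycle genes at -0.248 and -0.167, and those of cytokines and chemokines at 0.148 and 0.257.

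Cell cycle genes, which are carried by the dividing progenitors of such cultures, were all below 0 without the batch, 47 of 47, with a median of -0.248 and 0 at an unadjusted p under 0.05. With the batch, 44 were below 0 (median -0.167), 7 of them at an unadjusted p under 0.05, against 2.28% of all genes lower at that level. With 1 library left out the median without the batch lay between -0.344 and -0.067, and it was nearest to 0 without untreated replicate 2, followed by -0.127 without miR-124-5p replicate 2. Within the shared batches the medians were -0.0459 and 0.00482, with 20 of 47 genes lower and 11 higher in both. In bulk libraries fewer cells of a type and less RNA per cell cannot be told apart. The summed level was 1370, 1950, 1320 and 1530 CPM in untreated and 1480, 1040, 1480 and 1340 CPM in miR-124-5p libraries. Untreated replicate 2 was the highest and miR-124-5p replicate 2 the lowest, and neither of these had a partner in the other group. Pcna, a replication clamp, Rrm2, which makes deoxynucleotides, and Pclaf had -0.14 ± 0.07, -0.31 ± 0.17 and -0.51 ± 0.27. Astrocyte and radial glia markers moved with them, with 10 of 13 below 0 (median -0.172, -0.0979 with the batch) and summed levels of 1120, 1700, 1390 and 1710 CPM in untreated and 1640, 900, 1350 and 1350 CPM after exposure, and with Slc1a2, Hes1 and Vim at -0.11, -0.23 and -0.25. Without miR-124-5p replicate 2 the median of these glial markers was -0.002. Their part in the cell cycle values was not tested.

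Ribosomal protein genes were below 0 in 34 of 34 cases in both fits, with a median of -0.0464 and a lowest value of -0.119 without the batch, and with a median of -0.0542 and a lowest value of -0.151 with it. In the shared batches only, the median was -0.005. Within the shared batches the medians were 0.017 and -0.0409. Rps24, Rps27a and Rpl27 had -0.09, -0.12 and -0.11. Of 42 nuclear genes of oxidative phosphorylation, 38 were below 0 (median -0.0496, -0.0357 with the batch), 5 of them at an unadjusted p under 0.05, with Cox6c at -0.15 ± 0.06, Ndufb3 at -0.10 ± 0.04 and Atp5e at -0.10 ± 0.05. Of all genes, 1.39% were lower at an unadjusted p under 0.05. Within the shared batches the medians of the 42 were 0.012 and -0.0509. In both batches 14 were lower and 6 higher, against 27.1% and 26.1% of all genes. The 8 mitochondrially encoded genes tested had a median of 0.0485, and mt-Nd6, mt-Nd2 and mt-Nd4 had 0.09, -0.08 and 0.09.

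Of the genes of stress and death, 0 passed the threshold. Of 37 apoptosis and p53 genes, 21 were below 0 (median -0.0218), and Cycs, which encodes cytochrome c, was at 52.2 to 57.5 CPM in untreated and 44.5 to 51.0 CPM after exposure (-0.18 ± 0.07, unadjusted p 0.0167), without overlap. Xiap, an inhibitor of caspases, and Apaf1, the core of the apoptosome, had -0.08 and 0.08. Of 25 integrated stress response genes, 19 were below 0 (median -0.0591), led by Psat1, Shmt2 and Atf5 at -0.28, -0.24 and -0.17, whose highest value lay in untreated replicate 2 each time, and with the batch their fold changes were -0.09, -0.06 and -0.04. Of 20 heat shock and oxidative stress genes, 15 were below 0 (median -0.0728), with Hsp90aa1, Txnrd1 and Gclm at -0.07, -0.12 and -0.10. The 25 cholesterol synthesis genes had a median of -0.00602, with Nsdhl and Idi1 at 0.08 and -0.11. With the batch the median of this list was 0.0183. Within the shared batches its medians were -0.0602 and -0.0826. In both of them 19 of the 25 were lower and 3 higher, against 27.1% and 26.1% of all genes. Against Mut.oligo the median was 0.109, with 1 of the 25 below 0.

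Markers of cell types showed what else the cultures held. The 12 excitatory neuron markers had a median of 0.0436, with Rbfox3, Map2 and Tubb3 at 0.09, 0.07 and 0.06. Of 12 interneuron markers, 10 were below 0 (median -0.0329, -0.0797 with the batch), with Gad1, Sst and Dlx2 at -0.16, -0.18 and -0.17. Of the 14 microglia markers, 11 were below 0 (median -0.136), though P2ry12 was at no more than 0.144 CPM in any library, and Cx3cr1 and Ctss had -0.34 ± 0.36 and -0.21 ± 0.27. The 11 oligodendrocyte lineage markers had a median of 0.0625 (Cspg4, Gpr17 and Mbp at 0.16, 0.40 and 0.08), the 10 endothelial and mural markers 0.117 (Pecam1, Kdr and Pdgfrb at 0.53, -0.50 and 0.16), the 8 fibroblast and meningeal markers -0.186 (Foxc1, Dcn and Lum at -0.62, -0.33 and -0.54) and the 4 blood markers tested -0.442 (Hbb-bs, Hba-a1 and Hba-a2 at -0.67, -0.89 and -0.22). Fibroblast and meningeal markers summed to 119, 186, 92.6 and 276 CPM in untreated and 270, 117, 155 and 96.8 CPM in miR-124-5p libraries. The highest library of each group was of 1 shared batch, and the lowest of each group of the other. Single libraries decided the sign of several of these medians. Without untreated replicate 4 the median was 0.029 for microglia and 0.249 for fibroblast and meningeal markers, and without miR-124-5p replicate 4 the latter was 0.047. Without miR-124-5p replicate 1 it was -0.157 for oligodendrocyte lineage and -0.022 for endothelial and mural markers. Without untreated replicate 1 it was 0.022 for blood markers and -0.103 for oligodendrocyte lineage markers, and without untreated replicate 3 it was 0.004 for interneuron markers.

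The miR-124-5p libraries were also set directly against those of the other oligoribonucleotides, since the comparisons of each to untreated neurons share their control libraries. Against Mut.oligo, 0 of 18755 genes were called in either direction without and with the batch (0.0%), by edgeR and by DESeq2, with 360 higher (1.92%) and 311 lower (1.66%) at an unadjusted p under 0.05 without it. Against miR-92a-1-5p, edgeR called 0 without and with the batch (0.0%), with 204 higher (1.09%) and 209 lower (1.11%) before adjustment without it. DESeq2 called 0 without the batch and 1 gene higher with it (0.00533%). Grm2 was at 29.1, 29, 38.3 and 22.6 CPM after Mut.oligo exposure, below the 34.5 to 51.0 CPM of the miR-124-5p libraries in 3 of 4, and the log2 difference of miR-124-5p from Mut.oligo was 0.43 ± 0.16 (unadjusted p 0.0163, adjusted p 0.9999). Immediate early genes had a median of 0.0843 against Mut.oligo and 0.109 against miR-92a-1-5p, with 7 and 8 of 22 below 0. For Bdnf the differences were 0.63 ± 0.38 and 0.65 ± 0.37.

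Of the 24 cytokine genes, 22 had a log2 difference of miR-124-5p from miR-92a-1-5p below 0 (median -0.402), 4 of them at an unadjusted p under 0.05, and 0 passed the threshold. Over all genes, 1.11% were lower and 1.09% higher at that level in this comparison. These values are without the batch, and the groups shared 2 batches. Tnf was at 3.65, 4.18, 5.97 and 4.53 CPM after miR-92a-1-5p, and the difference of miR-124-5p from it was -0.49 ± 0.31, with an interval from -1.14 to 0.17. Against Mut.oligo the cytokine median was 0.00525. In that comparison 21 of 26 interferon-stimulated genes (median -0.269) and 14 of 14 microglia markers (median -0.334) were below 0. Of either list, 0 reached an unadjusted p under 0.05. Fibroblast and meningeal markers had a median of -0.84 and endothelial and mural markers of -0.473, whereas that of oligodendrocyte lineage markers was 0.128. Malat1 was at 302, 121, 266 and 403 CPM after Mut.oligo and at 122, 244, 320 and 147 CPM after miR-92a-1-5p, with differences of -0.22 ± 0.34 and 0.17 ± 0.34, and Meg3 had differences of -0.02 ± 0.21 and 0.23 ± 0.21. The libraries of these transcripts overlapped with those of both other oligoribonucleotides, and the intervals, from -0.93 to 0.49 and from -0.54 to 0.88 for Malat1, allow differences in both directions. Cell cycle genes had a median of -0.156 against Mut.oligo and -0.194 against miR-92a-1-5p.

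In these direct comparisons the same rule named genes with small p and no overlap. Against Mut.oligo, Hip1r, an endocytic adaptor, was at 79.2, 79.8, 82.1 and 76.8 CPM after Mut.oligo and at 85.2 to 89.3 CPM after miR-124-5p (0.15 ± 0.03, unadjusted p 0.000476), followed by Mib2, a ubiquitin ligase (0.16 ± 0.04), and Lrfn1, a synaptic adhesion protein (0.17 ± 0.04). A830073O21Rik, Pdcd4, an inhibitor of translation, and 9430053O09Rik were lower (-0.73 ± 0.18, -0.22 ± 0.06 and -0.48 ± 0.12). Against miR-92a-1-5p, Mib2 (0.15 ± 0.04), Caly (0.19 ± 0.06) and the pseudogene Gm14303 (0.57 ± 0.17) were higher and Gm38393, 9930014A18Rik and Zfp442 lower (-0.46 ± 0.13, -0.31 ± 0.09 and -0.46 ± 0.14), and all had an adjusted p of 0.9996.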

How the data were processed

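Gene expression was measured by stranded mRNA-seq. The authors mapped the reads to GRCm38 with STAR, counted reads on exons by gene and strand with featureCounts of Subread (gene annotation M12), and deposited raw counts of 49671 genes in 32 libraries, and 0 columns were left unmapped. By default this counting drops reads that overlap exons of 2 genes of a strand. Malat1 and Meg3 share exon bases with other genes of their strand in GENCODE M21, and how many of their reads were lost was not measured. Positions and gene types came from GENCODE M21 of GRCm38, which held 49412 of the identifiers.

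The 16 libraries of 6 h entered a fit with edgeR 4.0.16 (R 4.3.3), restricted to the 18755 genes that reached 5 counts in 3 or more libraries (TMM, all 4 groups, quasi-likelihood test, no covariate, as the methods of the study name none). The 16 libraries fell into 7 batches. In the fit with the batch, miR-124-5p replicate 3 had no weight. Log2 CPM used a prior count of 2. DESeq2 1.42.0 was an alternative. The methods were tested on simulated data. Replicates differed beyond sampling noise (chi-square per degree of freedom 6.893 to 12.43). p-values measure the spread between these libraries. Same replicate numbers did not pair the libraries across groups.

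The comparison, the 34 gene lists, the rule for named genes and the motif were chosen with earlier results of these data known. Named were the genes the study names, up to 5 genes per direction with the smallest p without overlap, up to 5 per direction in the batch fit that moved alike in both shared batches, up to 10 called by an alternative, up to 3 per list, and up to 3 per direction without overlap for each direct comparison, each of at least 1 CPM apart from lists and alternatives. Further members of a list with an unadjusted p under 0.05, Crh, Nppc, Neat1, Npas4, Gm26917, Arc, Rian and the miR-124 hosts were named after their values were seen. Target sites of miR-124-5p, RT-qPCR and viability were not analysed here. Some genes that the rule names are not reported here.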

Additional observations from a re-analysis of the deposited data

Results flagged for a closer look

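A library stood apart from the other 3 of its group in 8 of the 152 groups of 4 values tested (Dixon's test at the 95% level), and chance alone flags about 1 in 20. In miR-124-5p replicate 2, Rgs4 (205 CPM), the TEC locus Gm32444 (2.69 CPM), the pseudogene Gm14303 (8.98 CPM) and the summed level of the activity-regulated secreted and synaptic genes (1760 CPM) were each the highest of the miR-124-5p libraries. In miR-124-5p replicate 4, the pseudogene Gm7389 was highest (2.71 CPM) and the endothelial and mural markers were lowest (13.2 CPM summed). The partner of that library in its batch, untreated replicate 3, had 13.3 CPM for these markers, and it had the highest summed level of interneuron markers among untreated libraries (1130 CPM). Kcnq1ot1 was highest in untreated replicate 1 (5.31 CPM). The reason for these values was not tested.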

How the results depend on the processing

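The count of genes called against untreated was 0 in each direction under the batch covariate, DESeq2, RLE and upper quartile factors, no filter, a minimum of 10 counts in every library and a fit of the 2 groups alone, and without any 1 replicate (0 to 0). With DESeq2 and the batch 1 was called higher, and in the shared batches only 12 were higher and 4 lower. With the replicate number as a block 0 were called (531 higher and 229 lower at an unadjusted p under 0.05). The deviations of same-numbered libraries from their group means had correlations of -0.421, -0.229, -0.241 and -0.385. Such deviations cancel within a group, so that the correlations of batch partners, 0.681 and 0.691, push the others down. The negative signs are therefore partly built in. Against miR-92a-1-5p, DESeq2 with the batch called 1, the shared batches only called 4, and leaving out 1 replicate called 0 to 4, with 4 without miR-92a-1-5p replicate 1. The cause was not tested. Unadjusted counts moved beyond 1.5 times, to 278 higher and 157 lower with DESeq2 and the batch, to 427 lower with the batch, to 753 lower in the shared batches only, to 381 higher without miR-124-5p replicate 3, to 346 higher and 144 lower without untreated replicate 2, and to 402 lower without untreated replicate 3.

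Of 749 values for 42 named genes, 19 reversed and 11 newly passed the threshold, and 35 genes never reversed. With the batch, Sarm1 became -0.029, Rela 0.010 and Irf7 -0.043, and with DESeq2 and the batch -0.032, 0.008 and -0.061. Without miR-124-5p replicate 4, Fos became 0.015, Nr4a1 0.022, Myd88 0.044 and Gm7389 -0.077, and without untreated replicate 1 Fos became 0.125 and Nr4a1 0.076. Myd88 became 0.001 with no filter, 0.021 and 0.053 without miR-124-5p replicates 1 and 2, and 0.087 without untreated replicate 4. Irf7 became -0.260 and -0.016 without miR-124-5p replicates 1 and 2, and -0.115 without untreated replicate 3. Leaving out 1 replicate gave -0.762 to 0.125 for Fos, -0.143 to 0.087 for Myd88, -0.260 to 0.183 for Irf7, -0.511 to 0.076 for Nr4a1 and -0.077 to 1.864 for the log2 fold change of Gm7389. Of 611 list medians under an alternative, 38 in 15 of the 34 lists had the other sign, and 4 moved by more than the spread between replicates, to -0.003 for imprinted long non-coding RNAs and -0.005 for ribosomal protein genes in the shared batches only, to 0.246 for imprinted long non-coding RNAs without untreated replicate 1, and to 0.664 for nuclear long non-coding RNAs without untreated replicate 4. With 1 replicate left out, the medians ranged from -0.079 to 0.352 for cytokines and chemokines, from -0.278 to 0.256 for interferon-stimulated genes, from -0.15 to 0.115 for NF-kB subunits and feedback, from 0.008 to 0.246 for imprinted long non-coding RNAs and from -0.344 to -0.067 for cell cycle genes (-0.024 in the shared batches only). The median of blood markers under the minimum of 10 counts could not be given, since no marker was left. Depth limited Il6, Mx1, Zbp1 and P2ry12, which were near the floor.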
